A study of Homo sapiens with 4 samples.

Results

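Neuropilin-1 (NRP-1, gene NRP1) works at the cell surface together with other receptors and their ligands, and the 40 genes described here encode these families: 2 neuropilins, 9 plexins, 7 class 3 semaphorins, 13 membrane semaphorins, 5 VEGF ligands, 3 VEGF receptors and the adaptor GIPC1. They were chosen by name, by a rule that itself uses no measured value, although earlier results of these data were known. They were matched by NCBI Gene ID among the 18882 gene IDs listed in at least 1 library, and all 40 were found. RNA was sequenced from BT-474, an established luminal B-like breast cancer cell line, in 2 control libraries labelled wild-type (replicates 1 and 2) and 2 libraries labelled as NRP-1 overexpressing (replicates 2 and 3), all grown in RPMI-1640 medium with fetal bovine serum. The BT-474 NRP-1 cells had been transfected with a pPTuner IRES2 plasmid that holds the coding region of NRP-1. They were then selected with Geneticin and grown from colonies picked with disks. NRP-1 expression, the selection and the picking of colonies cannot be told apart in this design. The sources do not say whether libraries of 1 group came from separate cultures, so p-values measure the spread between these libraries, which may be technical.

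Neuropilins are receptors with a large extracellular part and a short cytoplasmic tail that lacks an enzyme domain. For the class 3 semaphorins, which are secreted guidance cues, they bind the ligand while a plexin of the A or D type carries the signal into the cell; for VEGF they act beside the tyrosine kinase receptors FLT1, KDR and FLT4. In breast tumours VEGF is best known as the signal by which tumour cells recruit blood vessels, whose endothelial cells are the classical site of KDR, whereas semaphorins and plexins are widely expressed by epithelial cells. The question here was which of these partners and ligands BT-474 cells express at all, and whether their RNA differed between control and NRP-1 cells.

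Expected counts summed to between 8243595 and 8448926 reads per library. The NRP-1 libraries stood further apart than the controls: over the 30 tested genes of the group with reads in every library, the higher CPM (reads scaled to library size) exceeded the lower by a median of 1.38 times within the NRP-1 pair and 1.11 times within the control pair. All 12 markers of luminal breast epithelium, among them KRT8, KRT18, EPCAM and ERBB2, reached at least 1 FPKM (a level scaled to transcript length and library size) in every library. Of 12 endothelial markers 5 (TEK, TIE1, ROBO4, ERG and SOX17) had at most 3 reads in each library. Of 8 fibroblast markers 6, and of 6 immune markers 4, were equally low. The fibroblast list still held 1 marker at 1 FPKM or more in every library. Its markers together came to 214 and 211 CPM in the control libraries and to 178 and 160 CPM in the NRP-1 libraries, although only 1 of the 8 had enough reads to be tested. The endothelial markers together came to 36.0 and 34.4 CPM in the control libraries and to 29.2 and 27.7 CPM in the NRP-1 libraries. EGFL7 and ESAM were the only ones of them at 1 FPKM or more in every library. Within the sum, EGFL7 had 18.8 and 15.1 CPM in the controls and 6.46 and 7.04 CPM in NRP-1 cells (log2 fold change -1.33, adjusted p = 0.0593 in edgeR). VWF lay the other way, with 1.11 and 2.43 CPM in the controls and 5.52 and 5.75 CPM in NRP-1 cells (log2 fold change 1.66, adjusted p = 0.0998). The part of these markers in the results on VEGFA, PLXND1 and the other genes was not tested.

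With 1 FPKM as the limit, the cells expressed plexins, semaphorins, VEGF ligands, FLT1 and GIPC1 in every library, but neither neuropilin in the controls. For FLT1 this holds at the transcript length assigned in the deposited data, which is that of a soluble form. Of the 40 genes 21 reached 1 FPKM in every library, 14 lay between that level and the read floor, and 5 were at the floor, here at most 3 reads in each library (3 reads equal 0.355 to 0.364 CPM). The most abundant were GIPC1, VEGFA and PLXNB2, with a mean over the 4 libraries of 121, 112 and 74.0 FPKM. Ranked by FPKM among all listed genes within each library, GIPC1 stood at the 97.3 percentile, PLXNB2 at the 95.1 percentile and VEGFA at the 94.3 percentile, each as the mean over the 4 libraries. At the floor were SEMA3A, SEMA3D, SEMA5B, VEGFD and PGF, whose highest count in any library was 3 reads (SEMA3A in NRP-1 replicate 2). For these 5 genes a level below the floor was not detectable at this depth.

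**Figure D1:**
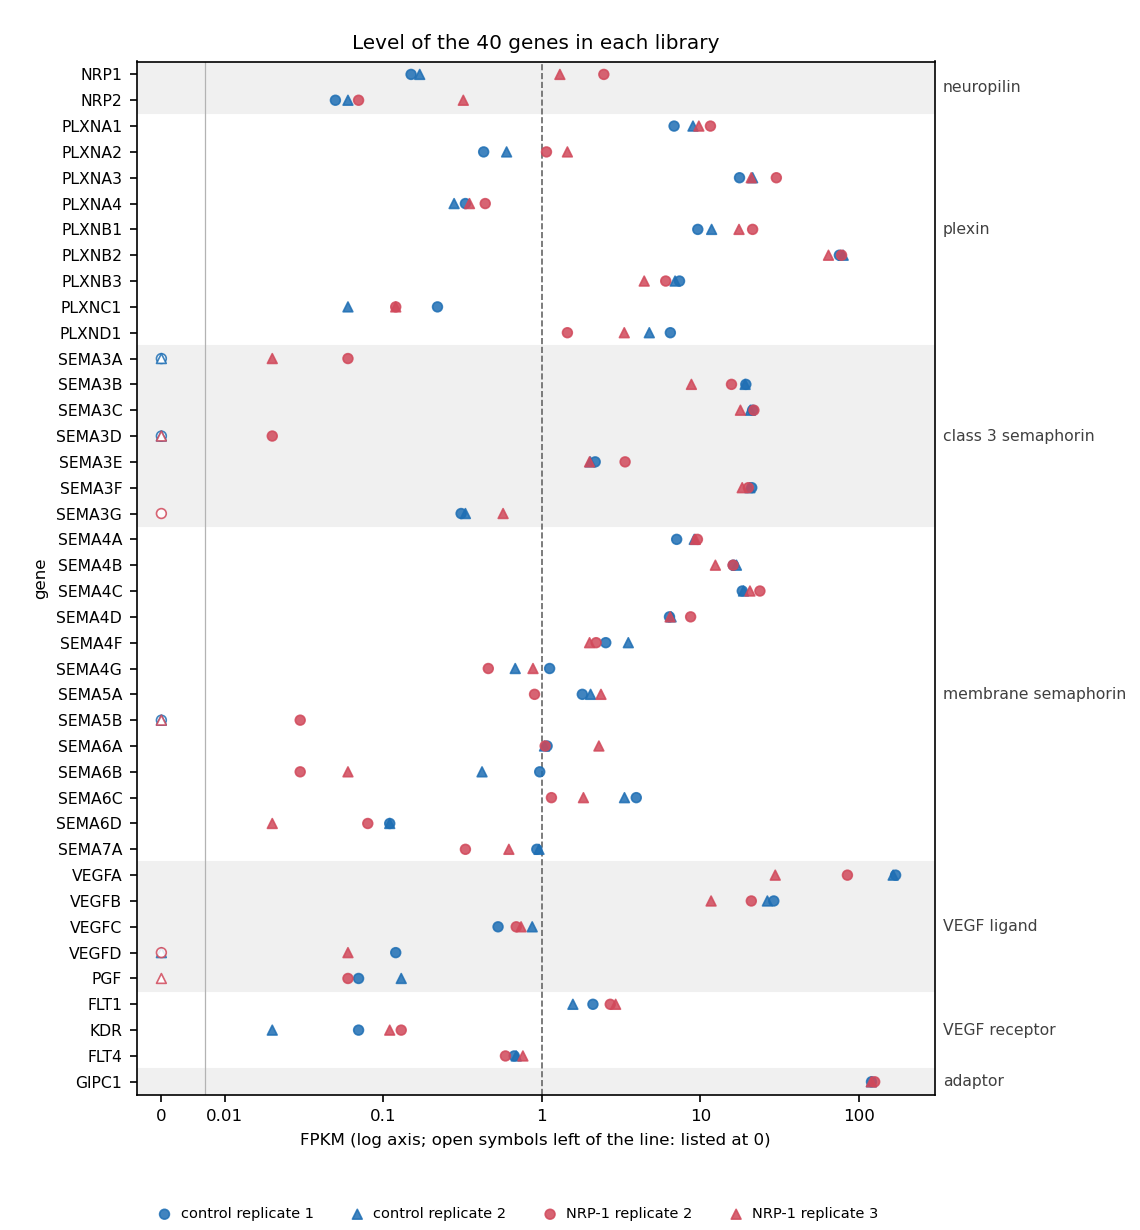
Level of each of the 40 genes in FPKM (log axis) in the 2 control libraries (blue) and the 2 NRP-1 libraries (red), 1 symbol per library, with genes ordered by role; open symbols at the left were listed at 0 and the dashed line marks 1 FPKM. NRP1 moves from 0.15 and 0.17 to 2.46 and 1.30 FPKM, while VEGFA, GIPC1 and PLXNB2 lie at the right. The 5 genes at the read floor lie at or below 0.13 FPKM, as do KDR and SEMA6D.

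NRP1, the gene carried by the plasmid, rose in NRP-1 cells and still stayed below many of its partners. It gave 7 and 8 reads in control replicates 1 and 2, against 103 and 62 in NRP-1 replicates 2 and 3. Both NRP-1 libraries thus lay far above both controls, and they differed from each other by 1.66 times in CPM. The log2 fold change was 3.38 (SE, the standard error, 0.42; adjusted p = 0.0440 by the quasi-likelihood test of edgeR and the Benjamini-Hochberg method), which is 10.4-fold. In RNA of whole cultures, more cells that express a gene and more RNA per cell cannot be told apart. Without a filter on low counts the adjusted p was 0.107, and without control replicate 1 or 2 it was 0.804 or 0.613, and in limma it was 0.112 to 0.121, so the call was lost in each of these settings. The level in FPKM was 0.160 ± 0.0141 (SD, n = 2) in the controls, compared with 1.88 ± 0.820 (SD, n = 2) in NRP-1 cells.

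Reads from the plasmid and from the cell's own NRP1 gene cannot be told apart in these gene counts. The study's qPCR primers for NRP-1, given here 5′ to 3′ in lower case, fall in a stretch that both hold:
NRP-1 forward primer: ccaggtcgaatccgatcct
NRP-1 reverse primer: cgctgtcggtgtaaaaaacca
Both matched 10 of the 14 NRP1 transcripts of GENCODE v29, always inside the coding region and with a product of 58 bases. In the transcript that corresponds to the full-length receptor, of 5877 bases with its coding region at bases 524 to 3292, the product covered bases 1220 to 1277, which the plasmid's insert also holds. Both transcripts of the soluble forms, of 2213 and 1988 bases, hold the same product. The mean transcript length assigned to NRP1 in the files, by which FPKM is divided, was 5692 bases in both control libraries, 4943 in NRP-1 replicate 2 and 5609 in NRP-1 replicate 3. The plasmid's insert is a coding fragment and thus shorter. FPKM may therefore understate NRP1 RNA in NRP-1 cells, and by how much was not tested.

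NRP2, the second neuropilin and a receptor for a partly different set of semaphorins, was nearly silent. It gave 1 and 3 reads in the controls and 4 and 11 in NRP-1 cells. The lower NRP-1 value was 1 read above the higher control value, and the gene was removed by the filter on low counts, so it was not tested. Summed over libraries, 15 reads against 4 gave a ratio of 3.68 (exact 95% interval 1.17 to 15.3, for counting error only). NRP1 made up 75% and 73.9% of the neuropilin FPKM in control cells and 97.2% and 80.2% in NRP-1 cells, a difference of 14.3 percentage points (exact two-sided permutation test, p = 0.333, the smallest that 2 libraries against 2 can give). Leaving out NRP-1 replicate 2 made the difference 5.79 percentage points, and leaving out replicate 3 made it 22.8. These FPKM shares depend on the length assigned to NRP2, 2601 and 6204 bases in the controls and 6605 and 4067 in NRP-1 cells. In CPM, which is not divided by length, the difference was 10.5 percentage points and the shares of the 2 groups overlapped. The control shares rest on few reads of either gene.

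Over the whole group of 40, 31 genes had enough reads to be tested and 9 did not (NRP2, PLXNC1, SEMA3A, SEMA3D, SEMA5B, SEMA6D, VEGFD, PGF and KDR). NRP1 was the 1 gene called at an adjusted p under 0.05, where 1.09% of the 14298 genes tested were called. This gene, carried by the plasmid, passed the filter on low counts only through the NRP-1 libraries, since the controls gave 7 and 8 reads. At an unadjusted p under 0.05 there were 11 genes, 3 with a positive and 8 with a negative fold change, where 22.8% of all genes passed. The CPM ranges of the 2 groups did not overlap in 17 of the 31 genes (54.8%), close to the 56.3% of all genes tested. Of these 17, 6 were higher and 11 lower, where 28% of all genes tested were higher and 28.3% lower. The median log2 fold change of the 31 genes was -0.12 and that of all genes tested 0.02, while the median of its absolute size was 0.50 against 0.27. By absolute size 7 genes (NRP1, PLXNA2, PLXND1, SEMA6B, SEMA6C, SEMA7A and VEGFA) reached 1, as did 8.21% of all genes.

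DESeq2, another count model, called 6 of the group, where it called 6.67% of all genes tested. They were NRP1 (adjusted p = 8.64e-06), PLXNB1 (0.00470), PLXND1 (0.0215), SEMA6B (0.0224), SEMA6C (0.0232) and PLXNA2 (0.0365). For VEGFA its adjusted p was 0.170.

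**Figure D2:**
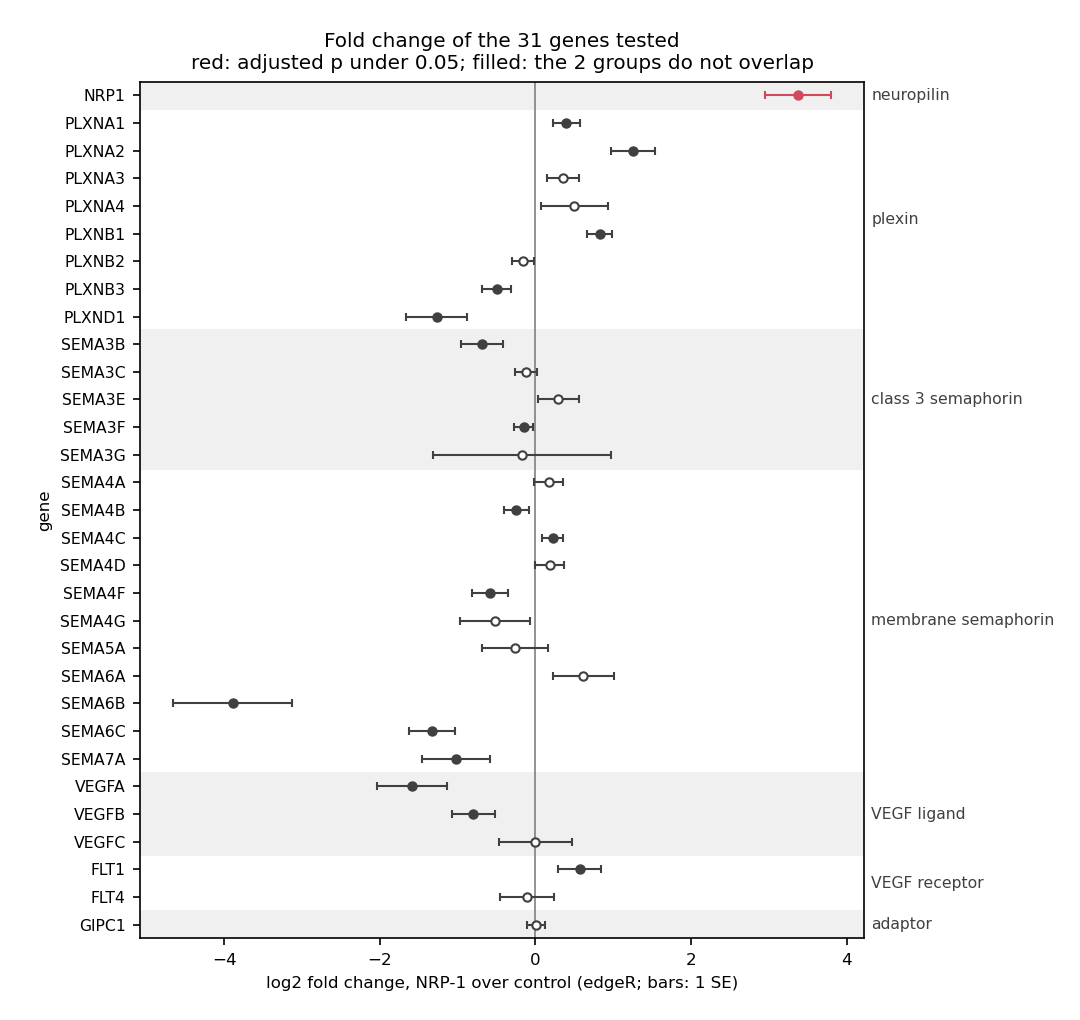
Log2 fold change of BT-474 NRP-1 over control cells with its SE (edgeR) for the 31 genes that passed the filter on low counts, ordered by role. NRP1 (red) at 3.38 has an adjusted p under 0.05; filled symbols mark the 17 genes whose 2 groups do not overlap, among them SEMA6B at -3.89 and VEGFA at -1.59.

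Plexins, the transmembrane receptors whose cytoplasmic part acts on small GTPases, were the receptor class with the highest summed level. Of 9 plexins 6 reached 1 FPKM in every library, 8 were tested, and edgeR called 0 at an adjusted p under 0.05, with 4 at an unadjusted p under 0.05 (22.8% of all genes) and 3 called by DESeq2 (6.67% of all genes). PLXNB2, a receptor for class 4 semaphorins, was the highest, with 75.1 and 79.4 FPKM in control cells and 77.5 and 64.1 FPKM in NRP-1 cells. The 2 groups overlapped (log2 fold change -0.16, SE 0.14, adjusted p = 0.538). PLXNB2 took 60.6% and 59.2% of the summed plexin FPKM in control cells and 51.8% and 52.6% in NRP-1 cells (exact permutation p = 0.333).

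Of the A-type plexins, the usual signalling partners of neuropilins, PLXNA3 and PLXNA1 were the abundant ones. PLXNA3 had 17.6 and 21.3 FPKM in control cells and 30.1 and 20.9 FPKM in NRP-1 cells, so the groups overlapped. PLXNA1 had 6.82 and 8.97 FPKM in control cells and 11.6 and 9.77 FPKM in NRP-1 cells, both above the controls (log2 fold change 0.40, SE 0.17, adjusted p = 0.245). PLXNA1 RNA exceeded NRP1 RNA per length in every library: the ratio of the FPKM values was 45.5 and 52.8 in control cells and 4.70 and 7.52 in NRP-1 cells. PLXNA4, the A-type plexin known mainly from neurons, stayed between 0.28 and 0.44 FPKM.

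PLXNA2 was the plexin with the largest positive log2 fold change. It gave 41 and 58 reads in the controls and 104 and 142 in NRP-1 cells, or 0.515 ± 0.120 FPKM (SD, n = 2) against 1.26 ± 0.269 (SD, n = 2). The groups did not overlap, and the log2 fold change was 1.25 (SE 0.29, adjusted p = 0.0821). PLXNB1, the receptor of SEMA4D, gave 578 and 714 reads in the controls and 1303 and 1080 in NRP-1 cells. Its groups did not overlap either, with a log2 fold change of 0.82 (SE 0.16, adjusted p = 0.0696).

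PLXND1, which binds SEMA3E and is best known from blood vessels, lay on the other side. It gave 376 and 279 reads in the controls and 86 and 197 in NRP-1 cells. Both NRP-1 values were below both controls, and they differed from each other by 2.29 times in CPM, more than the control libraries did (1.36 times). The log2 fold change was -1.27 (SE 0.39, adjusted p = 0.136); the omission of NRP-1 replicate 3 gave -1.99 and that of replicate 2 gave -0.80. PLXNB3 was also lower in both NRP-1 libraries, with 6.04 and 4.42 FPKM against 7.38 and 6.92 FPKM (adjusted p = 0.193). PLXNC1, the receptor of SEMA7A, had 2 to 7 reads per library and was not tested.

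**Figure D3:**
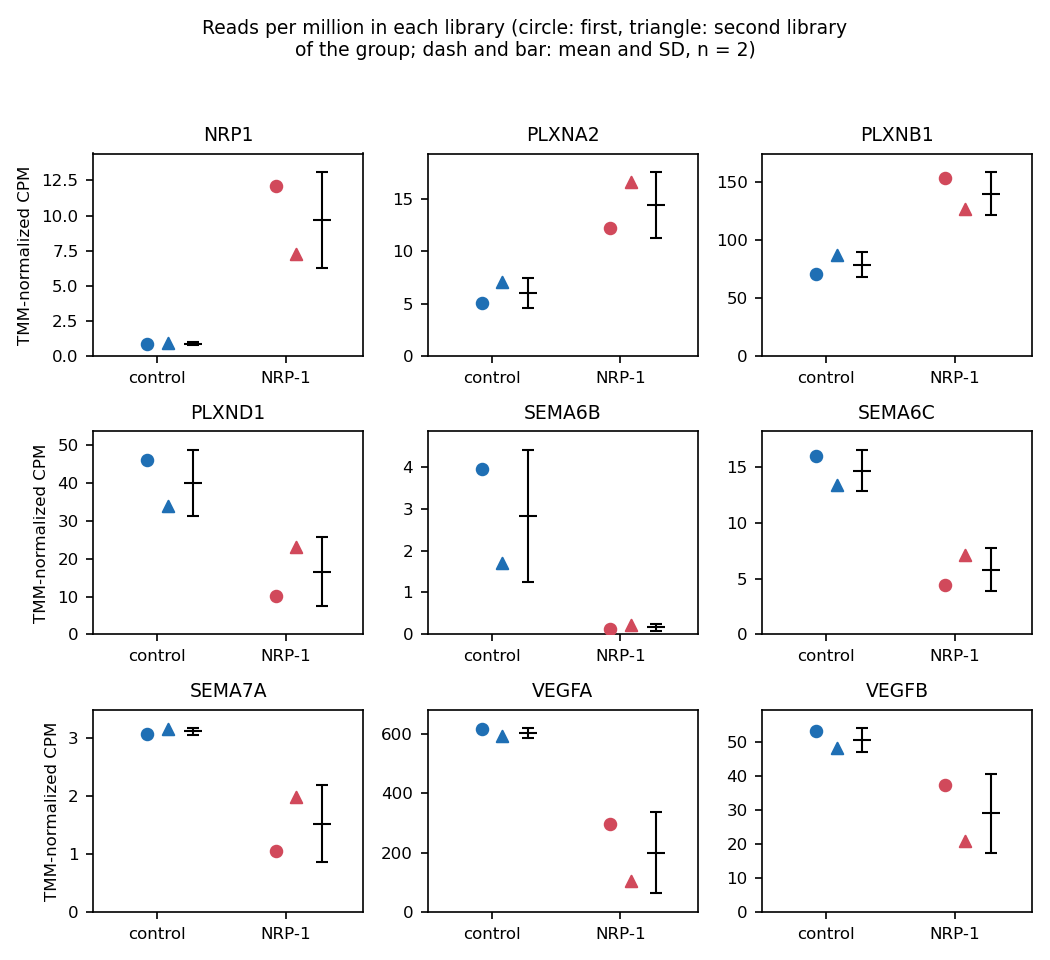
TMM-normalized CPM of 9 genes in each library (control blue, NRP-1 red; circle and triangle are the first and second library of the group), with the mean and SD of each group (n = 2) as dash and bar; each panel has its own axis from 0. The 2 groups do not overlap in any of the 9 panels, and the 2 NRP-1 libraries stand 2.83 times apart for VEGFA and 2.29 times apart for PLXND1.

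Class 3 semaphorins, the secreted ligands of neuropilins, were expressed in both cell populations. SEMA3C, SEMA3F and SEMA3B were the abundant ones, and SEMA3E followed at a lower level. SEMA3G was low, with at most 0.57 FPKM in any library, and SEMA3A and SEMA3D were at the floor. Of the 7 genes 5 were tested, and edgeR called 0 at an adjusted p under 0.05, with 1 (SEMA3B) at an unadjusted p under 0.05 and 0 called by DESeq2, beside the same shares of all genes. SEMA3A, the classical ligand of NRP-1, had no read in either control and 3 and 1 in NRP-1 cells. SEMA3D had 1 read in NRP-1 replicate 2 and none in the other 3 libraries. SEMA3G gave 12 and 13 reads in the controls but 0 and 23 in NRP-1 cells, so the groups overlapped and the SE was 1.15 on the log2 scale.

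SEMA3C, which is known to bind both neuropilins, had 21.3 and 20.6 FPKM in control cells and 21.7 and 17.9 FPKM in NRP-1 cells. The groups overlapped, with a log2 fold change of -0.12 (SE 0.14; 95% interval -0.46 to 0.22). SEMA3F, a ligand that prefers NRP2, had 21.1 and 20.5 FPKM in control cells and 20.0 and 18.3 FPKM in NRP-1 cells. Both NRP-1 values were below both controls, but the log2 fold change was only -0.15 (SE 0.12, adjusted p = 0.515). The ligand that prefers NRP2 was thus expressed at about the level of SEMA3C while NRP2 itself stayed at or below 0.32 FPKM in every library.

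SEMA3B, known as a tumour suppressor gene on chromosome 3, had 19.3 and 19.1 FPKM in control cells and 15.7 and 8.77 FPKM in NRP-1 cells. The controls were close together, the NRP-1 libraries were lower and stood 1.78 times apart in CPM, and the log2 fold change was -0.69 (SE 0.27, adjusted p = 0.204). SEMA3E, which binds PLXND1 without a neuropilin, had 2.17 and 2.02 FPKM in control cells and 3.35 and 2.0 FPKM in NRP-1 cells, so the groups overlapped. The FPKM summed over the class was 64.2 and 62.6 in control cells and 60.9 and 47.6 in NRP-1 cells.

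Membrane semaphorins signal through plexins mostly without neuropilins, and 7 of the 13 reached 1 FPKM in every library. SEMA4C, a ligand of PLXNB2, was the highest with 18.4 and 18.7 FPKM in control cells and 23.7 and 20.5 FPKM in NRP-1 cells. Its groups did not overlap, but the log2 fold change was small, 0.22 (SE 0.13, adjusted p = 0.373). SEMA4B had 12.4 to 16.9 FPKM, SEMA4A 7.08 to 9.57, SEMA4D 6.38 to 8.67, SEMA4F 2.0 to 3.51 and SEMA5A 0.90 to 2.36 over the 4 libraries. SEMA4G (0.46 to 1.12 FPKM), SEMA6A (1.04 to 2.29 FPKM) and SEMA6D (0.02 to 0.11 FPKM) were low, and SEMA5B had a single read. SEMA4D overlaps the listed gene SECISBP2 and SEMA4G overlaps MRPL43 in the annotation, and without a stated strand their reads may be shared; PLXNA3, PLXNC1 and VEGFD have such a neighbour too.

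The class 6 semaphorins, transmembrane ligands of A-type plexins, held the most negative log2 fold change of the group, that of SEMA6B. SEMA6B gave 32 and 14 reads in the controls and 1 and 2 in NRP-1 cells. All values are small and the groups did not overlap; 46 reads in the controls against 3 gave a ratio of 15.6 (exact 95% interval 5.02 to 78.4, for counting error only). The fitted log2 fold change, which depends on the prior count at such levels, was -3.89 (SE 0.77, adjusted p = 0.0696). SEMA6B passed the filter on low counts only through the controls, with 3.94 and 1.70 CPM against 0.12 and 0.23 in NRP-1 cells. Its test thus rests on the group in which it was high. With a mean of 0.37 FPKM it was too low for limma. SEMA6C gave 130 and 110 reads in the controls and 38 and 61 in NRP-1 cells. Both NRP-1 values were below both controls, with 3.63 ± 0.438 FPKM (SD, n = 2) in the controls, compared with 1.49 ± 0.481 (SD, n = 2) in NRP-1 cells (log2 fold change -1.34, SE 0.30, adjusted p = 0.0796). SEMA6A gave 62 and 60 reads in the controls and 61 and 134 in NRP-1 cells, so it overlapped and depended on 1 library.

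SEMA7A, a semaphorin anchored in the membrane by a lipid, gave 25 and 26 reads in the controls and 9 and 17 in NRP-1 cells. Both NRP-1 values were lower (log2 fold change -1.02, SE 0.44, adjusted p = 0.237).

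PLXNA2, PLXND1 and SEMA6C, which DESeq2 but not edgeR called, have a single start site in the RefSeq promoter table (GRCh38.p14), and the 250 bases before that site are shown 5′ to 3′ on the gene's strand, with GGGCGG boxes on either strand in capitals. PLXNA2 lies at chr1:208244385-208244634, PLXND1 at chr3:129606677-129606926 and SEMA6C at chr1:151146632-151146881, each on the minus strand.
PLXNA2: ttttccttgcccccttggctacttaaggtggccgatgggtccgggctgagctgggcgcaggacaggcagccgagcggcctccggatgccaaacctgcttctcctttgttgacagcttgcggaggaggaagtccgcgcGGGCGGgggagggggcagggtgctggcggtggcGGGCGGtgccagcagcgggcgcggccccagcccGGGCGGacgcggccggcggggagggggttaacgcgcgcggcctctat
PLXND1: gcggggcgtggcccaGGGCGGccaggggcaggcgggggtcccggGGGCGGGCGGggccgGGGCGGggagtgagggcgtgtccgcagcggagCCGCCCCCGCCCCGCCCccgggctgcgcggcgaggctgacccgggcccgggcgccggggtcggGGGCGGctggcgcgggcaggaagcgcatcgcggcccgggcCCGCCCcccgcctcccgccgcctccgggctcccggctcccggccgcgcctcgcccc
SEMA6C: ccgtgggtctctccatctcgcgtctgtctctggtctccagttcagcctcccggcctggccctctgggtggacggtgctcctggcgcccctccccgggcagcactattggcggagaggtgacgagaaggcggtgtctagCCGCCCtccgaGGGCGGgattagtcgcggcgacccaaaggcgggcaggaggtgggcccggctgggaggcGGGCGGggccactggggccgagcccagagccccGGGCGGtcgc
They hold 3, 9 and 4 matches of GGGCGG, a motif of GC-rich promoters, with overlapping matches counted in PLXND1. Their content of G and C was 72.4%, 88.8% and 73.2%. The table holds 56 windows for 34 of the 40 genes; NRP1, SEMA3A, SEMA6A, SEMA6B, VEGFA and FLT4 have none. GGGCGG was found in 37 of these 56 windows (66.1%) and in 42.6% of 35116 windows of all genes. ACGTG, the core of the element that hypoxia-inducible factors bind, was found in 16.1% of the 56 windows and 18.5% of all windows, and in none of the 3 shown. TGATGNAA, the composite element of C/EBP and ATF factors, was found in 3.57% and 3.14%.

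VEGF ligands were the role in which the libraries differed most in absolute level. VEGFA, the main growth factor for blood vessels and a ligand of NRP-1, FLT1 and KDR, gave 4999 and 4867 reads in the controls and 2524 and 892 in NRP-1 cells. In FPKM these were 169.9 and 163.9 in control cells and 84.4 and 29.6 in NRP-1 cells. Both NRP-1 libraries were far below both controls, but they stood 2.83 times apart in CPM while the controls stood 1.04 times apart. The log2 fold change was -1.59 (SE 0.45, 95% interval -2.69 to -0.49), and with that spread the adjusted p was 0.117. Leaving out NRP-1 replicate 2 gave -2.54, and leaving out replicate 3 gave -1.02.

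VEGFB, a ligand of FLT1 and NRP-1 but not of KDR, gave 431 and 396 reads in the controls and 317 and 178 in NRP-1 cells. The groups did not overlap, and NRP-1 replicate 3 was again the lowest (log2 fold change -0.80, SE 0.28, adjusted p = 0.166). VEGFC, a ligand of FLT4, gave 9 and 15 reads in the controls and 12 and 13 in NRP-1 cells, so its groups overlapped (95% interval of the log2 fold change -1.16 to 1.16). VEGFD and PGF had at most 2 reads in any library. VEGFA made up 85.1% and 85.7% of the FPKM summed over the 5 ligands in control cells and 79.6% and 70.4% in NRP-1 cells (exact permutation p = 0.333). The ratio of VEGFA to NRP1 in FPKM was 1132 and 964 in control cells and 34.3 and 22.8 in NRP-1 cells.

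**Figure D4:**
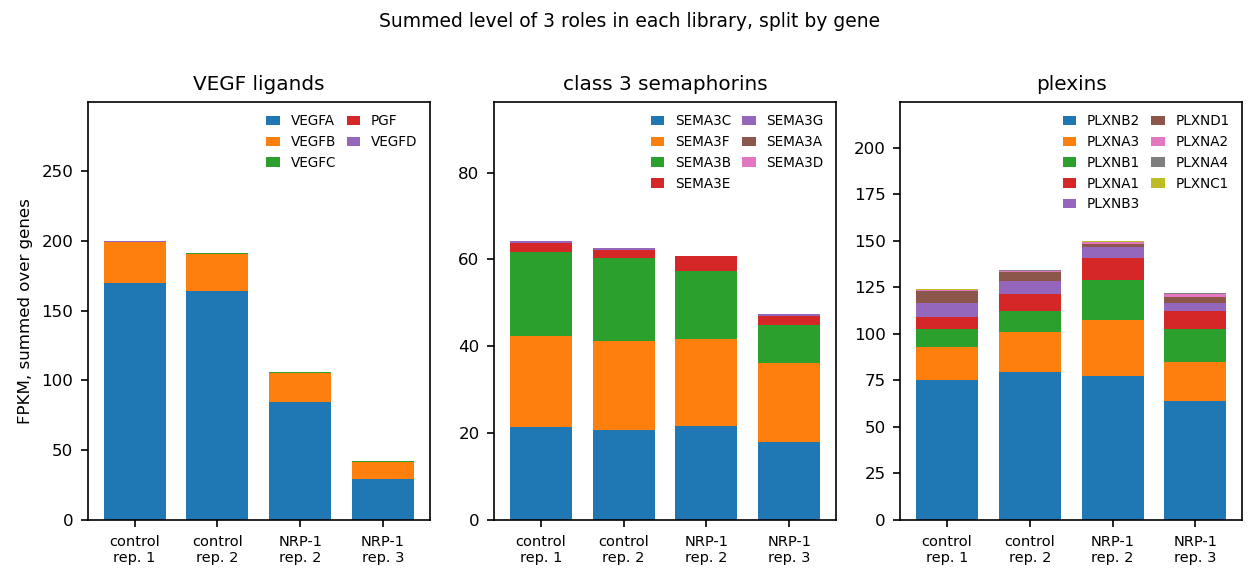
FPKM summed over the VEGF ligands, the class 3 semaphorins and the plexins in each of the 4 libraries, stacked by gene (each panel has its own axis from 0). The VEGF ligands come to 199.6 and 191.3 in control cells and to 106.1 and 42.1 in NRP-1 cells, most of it VEGFA, whereas the plexins stay between 121.9 and 149.6 and the class 3 semaphorins between 47.6 and 64.2.

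The VEGF receptors, by contrast, were scarce. FLT1 gave 52 and 39 reads in the controls and 67 and 74 in NRP-1 cells, or 1.83 ± 0.375 FPKM (SD, n = 2) against 2.81 ± 0.156 (SD, n = 2). Both NRP-1 values were above both controls (log2 fold change 0.57, SE 0.27, adjusted p = 0.278). The length assigned to FLT1 was 2968 bases in 3 libraries and 2991 in NRP-1 replicate 3. A transcript of the soluble receptor, which lacks the kinase domain, has 2969 bases in GENCODE v29 and that of the full-length receptor has 7092, so the assigned length matched the soluble form to within 1 base in 3 libraries. Because FPKM is divided by this length, the place of FLT1 above 1 FPKM in the controls rests on that assignment. Divided by the length of the full-length receptor, the same control reads would fall below 1 FPKM.

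KDR, the main signalling receptor for VEGFA in blood vessels, gave 4 and 1 reads in the controls and 7 and 6 in NRP-1 cells. It stayed at or below 0.13 FPKM and was not tested. FLT4, the receptor of VEGFC and VEGFD, gave 28 and 29 reads in the controls and 23 and 32 in NRP-1 cells, so the groups overlapped (log2 fold change -0.11, SE 0.34).

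GIPC1, the adaptor whose PDZ domain binds the tail of NRP-1, was abundant and nearly level across the libraries. It gave 1854 and 1873 reads in the controls and 1988 and 1914 in NRP-1 cells. The values lay within 119.5 to 125.4 FPKM, and the 95% interval of the log2 fold change ran from -0.27 to 0.28.

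The genes that work with this group on the membrane or inside the cell were counted from lists of names. They comprise 19 membrane partners of neuropilins and plexins, 34 plexin effectors and 24 genes of VEGF signalling and production. The list of membrane partners also holds some secreted growth factors. Of the 77 genes 61 were tested and none passed an adjusted p under 0.05 in edgeR; 17 of the 61 had an unadjusted p under 0.05 (9 higher, 8 lower), where 22.8% of all genes did, and DESeq2 called 9, where it called 6.67% of all genes. The lowest adjusted p, 0.0535, belonged to TGFBR1, a receptor for TGF-β, which is named after its values were seen. It had 9.24 and 10.2 FPKM in control cells and 21.2 and 17.4 FPKM in NRP-1 cells.

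Of the membrane partners 8 of 19 reached 1 FPKM in every library and 6 were at the floor, among them PDGFRA, PDGFRB and ITGB3. ERBB2, the amplified receptor of this cell line, was the highest of them with 1200 and 1299 FPKM in control cells and 1509 and 1196 FPKM in NRP-1 cells, so its groups overlapped. ITGB1, the integrin β chain of most collagen and fibronectin receptors, had 95.3 to 122.5 FPKM. EGFR had 21.3 and 22.8 FPKM in control cells and 20.5 and 12 FPKM in NRP-1 cells (adjusted p = 0.319).

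Plexin effectors were almost all present: 27 of 34 reached 1 FPKM in every library. The highest were CFL1 (cofilin, which severs actin filaments), RAC1 and RHOA, both small GTPases that organise actin. CFL1 had 610.3 and 609.8 FPKM in control cells and 863.1 and 969.8 FPKM in NRP-1 cells, with a log2 fold change of 0.55 (SE 0.13, adjusted p = 0.0868). RHOA had 160.9 and 159.98 FPKM against 198.4 and 192.2 FPKM (adjusted p = 0.262), and RAC1 lay between 194.3 and 214.0 FPKM in the 4 libraries. For each of these 3 genes the 2 groups did not overlap, as for 56.3% of all genes tested.

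In the VEGF list 19 of 24 genes reached 1 FPKM in every library. HIF1A, a subunit of the factor that drives VEGFA in low oxygen, had 210.8 and 219.9 FPKM in control cells and 110.0 and 149.6 FPKM in NRP-1 cells. Both NRP-1 values were below both controls (log2 fold change -0.76, SE 0.18, adjusted p = 0.0831). The part of HIF1A in the VEGFA values was not tested. EGLN3, an oxygen-dependent prolyl hydroxylase that marks HIF1A for decay, had 55.6 and 55.8 FPKM in control cells and 84.6 and 30.9 FPKM in NRP-1 cells, so the NRP-1 libraries lay on either side of the controls. VHL, which recognises the marked HIF1A, lay between 39.7 and 46.0 FPKM.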

How the data were processed

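Per library, the authors mapped the reads and deposited FPKM and expected counts of genes; 32.8% of the deposited expected counts above 0 were not whole. The submitters' processing notes name HISAT2 2.0.1, Bowtie2 2.2.5, bcl2fastq 2.16 and RSEM, and both GRCh38 and hg19 without a role. The paper and the series' design text name different HiSeq models. FPKM values, per the labels and paper, were normalized by the authors for transcript length and mapped reads. A deposited table of the authors' comparison (group means, log2 ratio, probability) was not used. Of the gene IDs 99.4% had a symbol in RefSeq (GRCh38.p14).

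After rounding, the expected counts entered the quasi-likelihood test (glmQLFit, glmQLFTest) of edgeR 4.0.16 under R 4.3.3, with TMM, filterByExpr and a single group term. Benjamini-Hochberg adjustment ran over all 14298 genes, with a threshold of 0.05. The standard error was the absolute log2 fold change divided by the square root of F, and 95% intervals used the t quantile at the total degrees of freedom of the fit. Alternatives were limma 3.58.1 on log2 of FPKM plus a pseudocount of 1 or 0.1 (mean FPKM of at least 0.5), DESeq2 1.42.0, no TMM, no filter, other FPKM and read limits and the omission of each library. In simulated data the changed genes had a log2 fold change of 2, with the same spread for every gene and in both groups. There edgeR recovered all 200 changed genes with 6 false calls among 14139 genes. Smaller changes and a spread that differs between groups were not simulated. Python 3.11.15 and scipy 1.17.1 gave the exact tests, and sequences came from RefSeq, GENCODE v29 and the study's primer list.

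All 40 genes are named. From the partner lists those called and the 3 highest by mean FPKM were named; some marker genes, PDGFRA, PDGFRB, ITGB3 and TGFBR1 were named in addition, after their values were seen. Of the 40 genes, library values are given at least for those called by edgeR, for fold changes of 1 or more on the log2 scale in either direction, and for the highest gene of each role with the neuropilins, VEGF receptors and class 3 semaphorins. Other partner genes were counted only. The genes and lists were chosen with earlier results of these data known.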

Additional observations from a re-analysis of the deposited data

How the results depend on the processing

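The number of genes called depended on the test. Of all genes tested 156 were called in edgeR with TMM, 953 in DESeq2, 0 with no low-count filter, 7 and 3 in limma with a pseudocount of 1 and 0.1 on FPKM, and 0 at an adjusted p of at most 0.001 with a log2 fold change of at least 2. Of the 40 genes of the group 1 was called in edgeR, 6 in DESeq2 and 0 in each of the other settings of the last sentence. Of the partner and effector genes DESeq2 called 9 and edgeR 0. With 1 library left out, the lone library of its group being assumed to vary like the other group, the calls ran from 0 to 5416 for all genes, from 0 to 16 for the group and from 0 to 25 for partner and effector genes. The counts of 0 came without control replicate 1 or 2; without NRP-1 replicate 2 or 3, where the close pair of controls sets the spread, 5416 or 4161 genes and 16 or 16 of the group were called.

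NRP1 stayed higher in every setting, with a log2 fold change of 3.38 without the filter (adjusted p = 0.107), 1.28 in limma with a pseudocount of 1 (adjusted p = 0.121), 2.87 with 0.1 (adjusted p = 0.112) and 2.96 to 3.70 with each library left out. The genes at the read floor were 2 (SEMA3D and SEMA5B) with a limit of 1 read, against 5 with 3 reads; 17 to 25 genes counted as expressed with FPKM limits of 2 and 0.5 or with TPM. Of the tested genes that edgeR did not call, 10 changed sign with a library left out, over log2 ranges of -0.27 to 0.012 (SEMA3C), -0.088 to 0.59 (SEMA3E), -0.23 to 0.80 (SEMA3G), -0.013 to 0.38 (SEMA4A), -0.049 to 0.38 (SEMA4D), -1.12 to 0.26 (SEMA5A), -0.057 to 1.06 (SEMA6A), -0.31 to 0.40 (VEGFC), -0.36 to 0.10 (FLT4) and -0.031 to 0.036 (GIPC1). No paired analysis was run because the labels do not say that a replicate number marks a pair. The groups also share only replicate number 2. Depth limits the genes at or near the read floor, where a few reads decide a ratio.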
